A study of Mus musculus with 13 samples.

Results

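The joint interzone genes described here are Gdf5, Gdf6, Wnt9a, Wnt4, Erg, Osr1 and Osr2, and all 7 were found by symbol among the 12880 genes listed in the limb bud RNA-seq table. They were measured in 13 libraries, each from the limb buds of 1 mouse embryo. At E11.5 there were 3 controls, given as Sox9fl/-, and 4 mutants, given as Sox9-/- and labelled Sox9null, so the controls of that stage also carried 1 null allele. At E12.5 there were 3 Sox9fl/fl controls and 3 Sox9fl/flPrx1CreER mutants, labelled Sox9cKO. The Prx1 promoter drives its Cre recombinase in limb bud mesenchyme and not in the ectoderm, and the inducing treatment and the origin of the Sox9-/- limb buds were details not given in the sources used here. All values are the authors' normalized RPKM (NRPKM), reads scaled by gene length and library depth, so levels of different genes can be set side by side.

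Synovial joints form within the skeletal condensations of the limb, where a band of cells called the interzone keeps apart the cartilage elements on its sides. GDF5 and GDF6 are secreted ligands of the BMP family that mark and shape this band, WNT9A and WNT4 are secreted ligands that act there against the chondrocyte fate, and ERG is an ETS family transcription factor of prejoint cells. OSR1 and OSR2 are odd-skipped zinc finger transcription factors of limb connective tissue and joints. SOX9 is the transcription factor that chondrocyte differentiation depends on, and the series asks which events of early chondrogenesis need it.

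From E11.5 to E12.5, 5 of the 7 interzone genes rose in control limb buds, where 21.7% of all genes were called and 16.5% rose. The rise was 3.50-fold for Gdf5, 2.45-fold for Erg, 1.92-fold for Wnt9a, 1.59-fold for Wnt4 and 1.57-fold for Gdf6, as ratios of group means. For Gdf5 summed with the overlapping gene Gm15557, described below, the log2 difference was 1.47, against 1.73 for Gdf5 as listed. Gdf5 and Erg were also higher at E12.5 than at E11.5 in Sox9-deficient limb buds, 2.27-fold and 2.02-fold, and both rises were called. The genotypes change with stage, from Sox9fl/- to Sox9fl/fl in controls and from Sox9-/- to Sox9fl/flPrx1CreER in mutants. Stage and this change of alleles cannot be told apart in any comparison across stages. In the Sox9-deficient stage comparison, 19.7% of all genes were called and 14.5% rose. None of the 7 genes passed limma's test between mutants and controls of either stage, where 0.0543% (E11.5) and 0.194% (E12.5) of all genes did. Gdf5, Wnt4 and Osr2 were lower in all 3 E12.5 mutants than in all 3 controls, as were 8.5% of all genes.

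Sox9 itself was 35.8, 49.3 and 37.1 NRPKM in the E11.5 controls and 20.6, 25.7, 25.04 and 22.7 in Sox9null, and it fell (log2 difference -0.76, SE 0.11, limma adjusted p = 0.036). At E12.5 it was 37.5, 35.2 and 35.9 in controls and 35.1, 28.7 and 32.2 in Sox9cKO, which was not called (log2 difference -0.18, adjusted p = 1). The position of the counted reads relative to the deleted exons was not given in the sources used here, and at E12.5 this level does not check the labels. The 15 measured cartilage genes summed to 342 to 433 NRPKM in the E12.5 controls and to 185 to 256 in Sox9cKO, and Acan, Col11a2, Matn1 and Mia1 fell among them. The authors listed genes with a group mean of at least 3, which Acan, Matn1 and Mia1 reached in the E12.5 controls only (7.40, 13.9 and 5.36). They were thus listed through the group where they are high, and their fall does not check the labels. At E11.5 Col9a2, Col9a3 and Lect1 fell as well as Sox9. The 7 E11.5 libraries split by overall similarity. Control 2 clustered with Sox9null 1 and 2 (3 libraries), and controls 1 and 3 with Sox9null 3 and 4 (4 libraries). Correlations across genes were 0.979 to 0.989 inside either cluster and 0.938 to 0.966 across them. By Y-linked genes the 3 E12.5 controls were male, while of Sox9cKO 1 library was male and 2 were female. At E11.5 control 1 and Sox9null 3 were male and the other libraries female. The mix of sexes thus also differs between stages in controls. Erythroid markers, 13 genes, summed to 643 to 698 NRPKM in E12.5 controls and 889 to 1097 in Sox9cKO. Rhag alone was called among them (log2 difference 0.77, limma adjusted p = 0.0375), and their part in the differences below was not tested.

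**Figure D1:**
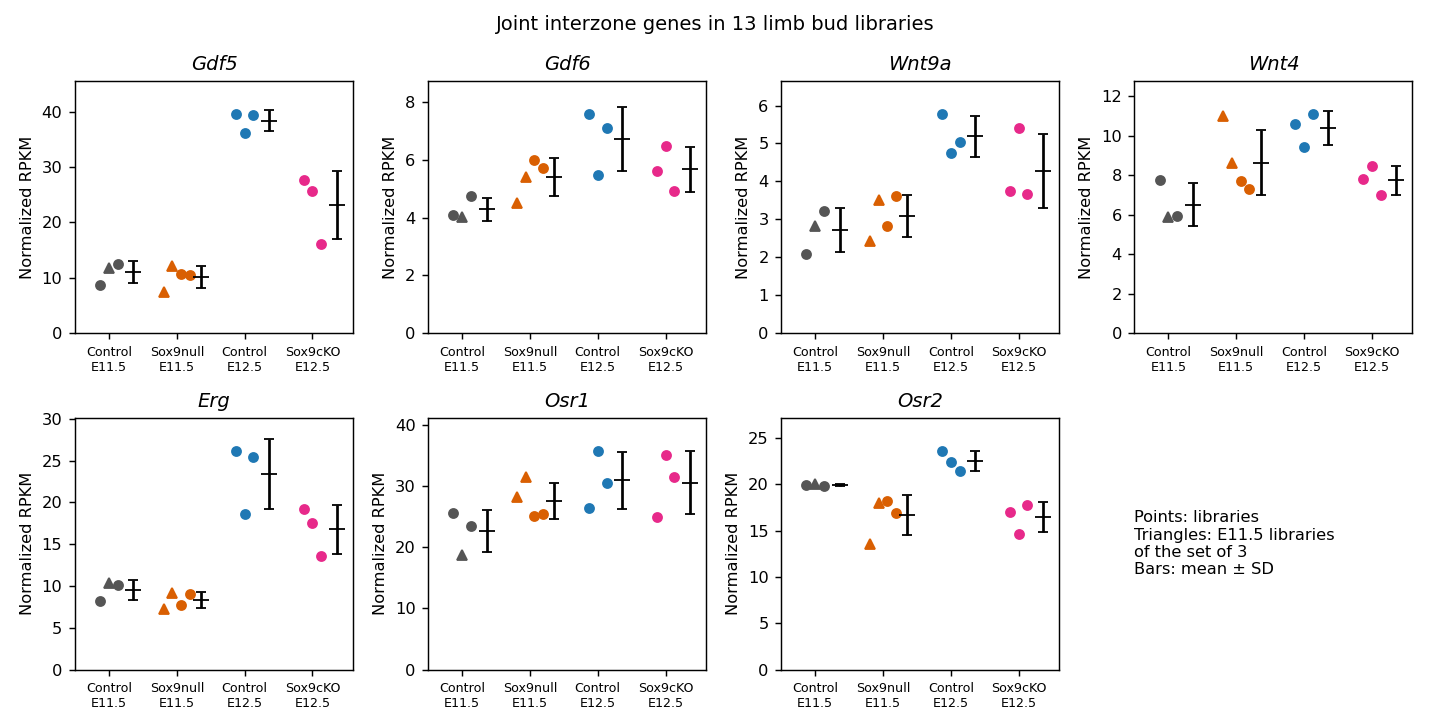
Levels of the 7 genes in normalized RPKM, 1 point for each library, with mean ± SD of each group beside the points and triangles for the E11.5 cluster of 3 libraries. The vertical axes start at 0. Gdf5 sits at 36.2 to 39.6 in E12.5 controls, 16.1 to 27.6 in Sox9cKO and 7.34 to 12.4 at E11.5.

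Among the ligands of the BMP family, Gdf5 (chromosome 2, 155941023 to 155945367, minus strand, GRCm38) showed the widest range. At E11.5 it was 8.71, 11.8 and 12.4 NRPKM in controls and 7.34, 12.1, 10.7 and 10.5 in Sox9null. At E12.5 it was 39.6, 36.2 and 39.5 in controls and 27.6, 25.6 and 16.1 in Sox9cKO. The stage groups were far apart in both genotypes, the E11.5 genotypes overlapped, and the E12.5 genotypes did not overlap. On the log2(NRPKM + 1) scale the stage difference was 1.73 in controls (SE 0.20, limma adjusted p = 0.000555) and 1.10 in Sox9-deficient limb buds (SE 0.19, adjusted p = 0.00457). The mutant difference at E12.5 was -0.74 (95% interval -1.19 to -0.30) with an unadjusted p of 0.00327 and an adjusted p of 0.289, so it was not called. It was -0.51 without Sox9cKO 3, the library with the lowest Gdf5. That library is also the only male mutant of the stage, and it differed from the male controls by -1.20. At E11.5 the mutant difference was -0.11 (95% interval -0.52 to 0.31), with 0.02 inside the cluster of 4 libraries and -0.29 inside that of 3.

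Gdf6 (chromosome 4, 9844372 to 9862345, plus strand) was lower and narrower in range than Gdf5. It was 4.09, 4.02 and 4.75 NRPKM in E11.5 controls, 4.52, 5.40, 6.01 and 5.71 in Sox9null, 7.59, 5.49 and 7.11 in E12.5 controls and 5.61, 6.49 and 4.94 in Sox9cKO. The E11.5 controls lay below both E12.5 groups, while groups next to each other in the order of mean levels overlapped. Gdf6 rose with stage in controls (log2 difference 0.54, SE 0.13, limma adjusted p = 0.0128), a call that was lost without E12.5 control 1 (adjusted p = 0.0639) or control 3 (adjusted p = 0.0518). In Sox9-deficient limb buds the stage difference was 0.06 (95% interval -0.21 to 0.32). The difference between the stage effects of the genotypes was -0.48 (SE 0.18, unadjusted p = 0.019, adjusted p = 1) and was not called. The ratio of Gdf6 to Gdf5 was 0.341 to 0.469 in E11.5 controls and 0.152 to 0.192 in E12.5 controls, against 0.203 to 0.306 in Sox9cKO. With the Gdf5 level that includes the overlapping gene described next, the ratio was 0.150 to 0.186 in E12.5 controls and 0.163 to 0.248 in Sox9cKO, which overlap. The limit stated below for the summed level holds for this ratio too.

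The Gdf5 locus holds a second listed gene, Gm15557, annotated on the opposite strand (chromosome 2, 155940728 to 155942750, plus strand). The annotated exons of Gm15557 span 1380 bases after merging, of which 936 (155941482 to 155942417) are also exon of Gdf5. Gm15557 was 3.52, 4.87 and 5.35 NRPKM in E11.5 controls, 3.26, 4.78, 4.18 and 3.91 in Sox9null, 2.14, 0.586 and 2.17 in E12.5 controls and 11.4, 10.2 and 6.39 in Sox9cKO. It rose in Sox9cKO (log2 difference 2.01, SE 0.27, limma adjusted p = 0.00851) and fell with stage in controls (log2 difference -1.14, SE 0.27, adjusted p = 0.012). In Sox9-deficient limb buds it rose with stage, by 1.01 (adjusted p = 0.0186).

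The level of Gm15557 followed that of Gdf5 in a nearly fixed ratio in 10 of the 13 libraries. The ratio was 0.404 to 0.430 in E11.5 controls, 0.372 to 0.444 in Sox9null and 0.396 to 0.415 in Sox9cKO. In the E12.5 controls it was 0.0539, 0.0162 and 0.055. Use of strand by the counting was not given in the sources used here. Without it, reads of the shared exon cannot be told apart between the genes. With both genes summed by exon length and expressed per length of Gdf5, the level was 40.9, 36.5 and 40.8 NRPKM in E12.5 controls and 34.4, 31.7 and 19.9 in Sox9cKO. The shared bases were not taken out of this sum, so a read counted for both genes would enter it under each. In that case the sum would be raised more in the 10 libraries of the higher ratio than in the E12.5 controls. The E12.5 mutant difference of the sum would then be smaller in size for that reason. The E12.5 mutant difference of the sum was -0.48 (adjusted p = 0.825), against -0.74 for Gdf5 as listed, and this sum was formed after the values had been seen. The stage differences of the sum were 1.47 in controls (adjusted p = 0.00104) and 1.11 in Sox9-deficient limb buds (adjusted p = 0.0044), so both rises were also called for the sum. In the table, 287 pairs of antisense genes share at least 30% of the exon bases of their lower gene, and in 4 of them the lower gene differed at E12.5 by a log2 of at least 1.

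**Figure D2:**
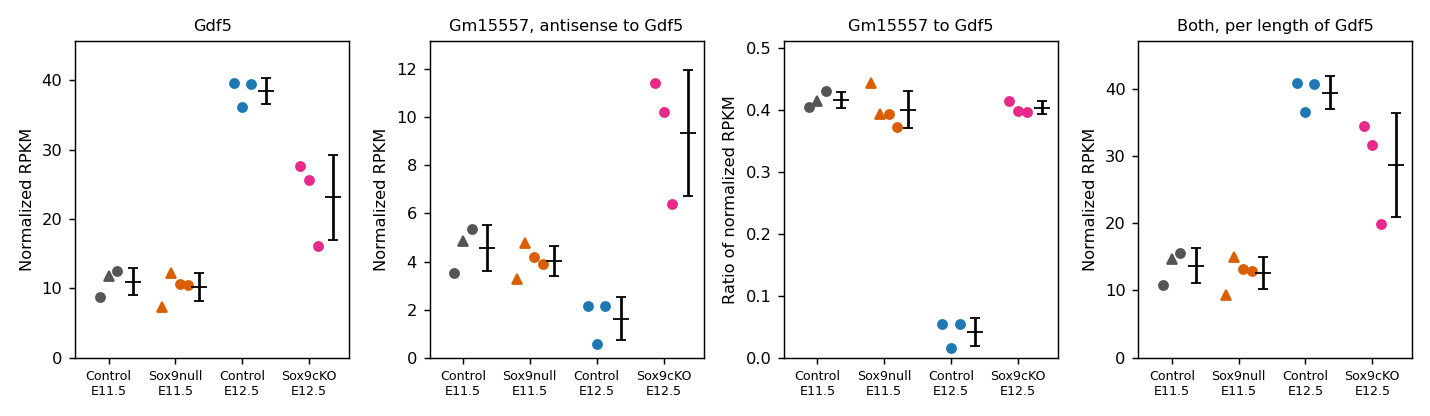
Gdf5, the antisense gene Gm15557, the ratio of the 2 levels, and both genes summed per length of Gdf5, with 1 point for each library and mean ± SD beside each group. The ratio is 0.0162 to 0.055 in the E12.5 controls and 0.372 to 0.444 in the other 10 libraries.

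Of the measured genes that carry or limit a GDF5 signal, 1 was called between E12.5 genotypes. Of all genes, 0.194% were called in that comparison and 0.0543% between E11.5 genotypes. Bmpr1b, the type I receptor that GDF5 prefers, was 9.57 ± 2.39 NRPKM (SD, n = 3) in E11.5 controls and 16.4 ± 2.29 (n = 3) in E12.5 controls. It rose with stage in controls (log2 difference 0.74, limma adjusted p = 0.00879) and in Sox9-deficient limb buds (0.64, adjusted p = 0.0159), and the E12.5 mutant difference was -0.36 (adjusted p = 0.906). Of the 10 receptors and SMADs measured, 0 were called between mutants and controls of either stage, with median differences of -0.02 at E11.5 and -0.03 at E12.5. Of the 9 antagonists measured, Nog alone was called at E12.5 and none at E11.5. Nog, which encodes the secreted BMP and GDF antagonist noggin, was 16.3, 10.1 and 16.3 NRPKM in E12.5 controls and 5.73, 4.61 and 3.16 in Sox9cKO. It fell there (log2 difference -1.47, SE 0.22, adjusted p = 0.0159), and all 3 mutants were below all 3 controls. Among 10 other ligands and response genes of the pathway, such as Bmp2 and Msx2, 0 were called in either mutant comparison. Bmp2, Bmp5, Bmp7 and Msx2 rose with stage in controls, where 16.5% of all genes were called higher.

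Wnt9a (chromosome 11, 59306928 to 59333552, plus strand), the WNT ligand of forming joints, was the lowest of the 7 genes. It was 2.07, 2.83 and 3.22 NRPKM in E11.5 controls, 2.42, 3.50, 2.84 and 3.61 in Sox9null, 5.78, 4.74 and 5.04 in E12.5 controls and 3.75, 5.40 and 3.67 in Sox9cKO. Sox9cKO 2 lay among the controls, while the other 2 mutants lay below them. The stage difference was 0.75 in controls (SE 0.16, limma adjusted p = 0.00831) and 0.36 in Sox9-deficient limb buds (SE 0.15, adjusted p = 0.114). The mutant differences were 0.14 at E11.5 (95% interval -0.19 to 0.48) and -0.24 at E12.5 (95% interval -0.60 to 0.11).

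Wnt4 (chromosome 4, 137277489 to 137299726, plus strand), a ligand made in joints and in limb ectoderm, had mutant differences of opposite sign at the 2 stages. It was 7.77, 5.86 and 5.92 NRPKM in E11.5 controls and 11.0, 8.61, 7.69 and 7.31 in Sox9null, a difference of 0.36 with an unadjusted p of 0.0191 and an adjusted p of 1. At E12.5 it was 10.6, 9.42 and 11.1 in controls and 7.81, 8.46 and 6.99 in Sox9cKO, a difference of -0.38 with an unadjusted p of 0.0193 and an adjusted p of 0.632. The E11.5 groups overlapped and the E12.5 groups did not. The change of the mutant effect from E11.5 to E12.5 was -0.73 (SE 0.19), the largest of the 7 genes in size, with an unadjusted p of 0.00248 and an adjusted p of 1. Wnt4 differed between E11.5 genotypes by 0.13 inside the cluster of 4 libraries and by 0.65 inside that of 3, which has 1 control. Wnt4 rose with stage in controls (0.60, SE 0.14, adjusted p = 0.0108), and in Sox9-deficient limb buds the stage difference was -0.13 (95% interval -0.41 to 0.16).

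Most surface ectoderm markers lay on the same side of 0 as Wnt4 at each stage. Of 14 markers, 13 lay above 0 in Sox9null at E11.5 (median log2 difference 0.14) and 9 lay below 0 in Sox9cKO (median -0.06), with 0 called in either. Their summed level was 181 to 224 NRPKM in E11.5 controls, 193 to 265 in Sox9null, 234 to 244 in E12.5 controls and 208 to 238 in Sox9cKO. Wnt4 relative to the geometric mean of these markers was 0.649 to 0.757 in E12.5 controls and 0.545 to 0.570 in Sox9cKO, so the E12.5 groups also stood apart on this ratio. At E11.5 the ratio was 0.464 to 0.553 in controls and 0.516 to 0.706 in Sox9null, which overlap. At E12.5 the markers went both ways, 5 above 0 and 9 below, and the ratio is a description only. The part of the ectoderm in the Wnt4 values was not tested.

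The other WNT pathway genes are set beside all genes, of which 0.0543% were called between genotypes at E11.5 and 0.194% at E12.5. Of 8 other WNT ligands, 0 were called in either mutant comparison. Their signs were mostly those of Wnt4, with 6 of 8 above 0 at E11.5 (median 0.07) and 8 of 8 below 0 at E12.5 (median -0.13, against 0.01 for all genes). Of 16 canonical receptors and effectors, the receptor gene Fzd9 was the single call in each mutant comparison. It fell from 2.90 ± 0.57 to 0.921 ± 0.113 NRPKM at E11.5 (log2 difference -1.01, limma adjusted p = 0.0144) and from 9.70 ± 1.23 to 3.65 ± 0.58 at E12.5 (-1.20, adjusted p = 0.00384). Axin2, a feedback target of canonical WNT signalling, was 26.9 ± 0.55 and 26.4 ± 2.09 NRPKM at E11.5 and 29.4 ± 0.432 and 27.7 ± 0.924 at E12.5, in controls and mutants. The WNT effector Lef1 differed by -0.02 at E11.5 and -0.01 at E12.5. Of 12 feedback genes and antagonists, 0 were called in either mutant comparison, and Dkk2, Dkk3, Sfrp2 and Wif1 rose with stage in both genotypes. With stage, 16.5% of all genes were called higher in controls and 14.5% in Sox9-deficient limb buds.

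For Wnt9a, Wnt4 and Erg the sequence upstream of the RefSeq start (GRCm38.p6) was at hand, and it is shown because these 3 genes all rose in controls and their upstream sequences differ in composition. Each stretch is given on the strand of its gene and stops before the first annotated exon. Capitals mark GC boxes, GGGCGG or its reverse complement CCGCCC, at which SP family factors can bind. The stretches lie at chr11:59306680-59306927 on the plus strand for Wnt9a, chr4:137277385-137277488 on the plus strand for Wnt4 and chr16:95586594-95586843 on the minus strand for Erg.
Wnt9a: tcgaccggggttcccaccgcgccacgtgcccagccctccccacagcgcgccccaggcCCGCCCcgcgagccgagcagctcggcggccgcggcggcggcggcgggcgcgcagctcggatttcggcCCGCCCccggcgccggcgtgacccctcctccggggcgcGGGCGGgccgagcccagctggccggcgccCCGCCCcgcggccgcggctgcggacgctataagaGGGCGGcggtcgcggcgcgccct
Wnt4: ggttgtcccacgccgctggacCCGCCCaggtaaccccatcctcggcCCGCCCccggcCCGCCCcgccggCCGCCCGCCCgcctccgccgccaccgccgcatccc
Erg: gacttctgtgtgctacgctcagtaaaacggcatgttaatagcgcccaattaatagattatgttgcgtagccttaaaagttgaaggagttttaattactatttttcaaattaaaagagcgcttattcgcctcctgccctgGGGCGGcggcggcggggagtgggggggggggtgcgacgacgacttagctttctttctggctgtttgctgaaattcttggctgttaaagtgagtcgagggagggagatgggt
GC content was 84.3% over 248 bases of Wnt9a and 83.7% over 104 bases of Wnt4, but 48.8% over 250 bases of Erg, and the median over 32851 promoters was 52.4% in 250 bases. The Wnt9a stretch held 5 GC boxes, that of Wnt4 also 5, of which 2 overlap, and that of Erg 1. Among all promoters, 32.7% held at least 1 in the same 248 or 250 bases and 25.1% in 104. The letters ACAATG and ACAAAG (SOX), CTTTGA (TCF and LEF), GGAAGT (ETS) and TGACTCA (AP-1) did not occur in the 3 stretches on either strand. They occur in 10.7%, 16.5%, 13.8%, 19.7% and 4.46% of promoters over 250 bases. Over 104 bases, the length of the Wnt4 stretch, the shares are 4.435%, 6.79%, 5.18%, 10.35% and 1.98%. A match or its lack describes these letters only.

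Erg (chromosome 16, 95359169 to 95586593, minus strand) had the second largest stage difference of the members after Gdf5. It was 8.19, 10.4 and 10.2 NRPKM in E11.5 controls, 7.25, 9.22, 7.78 and 9.04 in Sox9null, 26.2, 18.6 and 25.4 in E12.5 controls and 19.2, 17.6 and 13.5 in Sox9cKO. The E12.5 genotypes overlapped through 1 library of each, control 2 and Sox9cKO 1. Erg rose with stage in controls (log2 difference 1.20, SE 0.15, limma adjusted p = 0.000697) and in Sox9-deficient limb buds (0.92, SE 0.14, adjusted p = 0.00303). The mutant difference at E12.5 was -0.46 (95% interval -0.79 to -0.12, unadjusted p = 0.0114, adjusted p = 0.522) and was -0.32 without Sox9cKO 3. That male mutant differed from the male controls by -0.73.

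Erg is also a gene of endothelial cells, so its level in whole limb buds adds up vessels and skeletal cells. All 16 endothelial markers were measured, 0 were called in either mutant comparison, and 16 of 16 lay above 0 in both, with medians of 0.14 at E11.5 and 0.09 at E12.5. Their sum was 225 to 241 NRPKM in E12.5 controls and 239 to 257 in Sox9cKO. Erg relative to the geometric mean of these markers was 2.05, 1.38 and 2.03 in E12.5 controls and 1.43, 1.21 and 0.982 in Sox9cKO, with control 2 again below Sox9cKO 1. At E11.5 the ratio was 0.666 to 0.921 in controls and 0.591 to 0.692 in Sox9null. With stage, 1 of the 16 markers was called in controls and 2 in Sox9-deficient limb buds, Tek in both. Of all genes, 21.7% and 19.7% were called in these comparisons. The median differences of the markers were 0.09 and 0.06 against 1.20 and 0.92 for Erg. Of 6 other ETS factor genes measured, Fli1 and Ets1 among them, 0 were called in either mutant comparison.

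**Figure D3:**
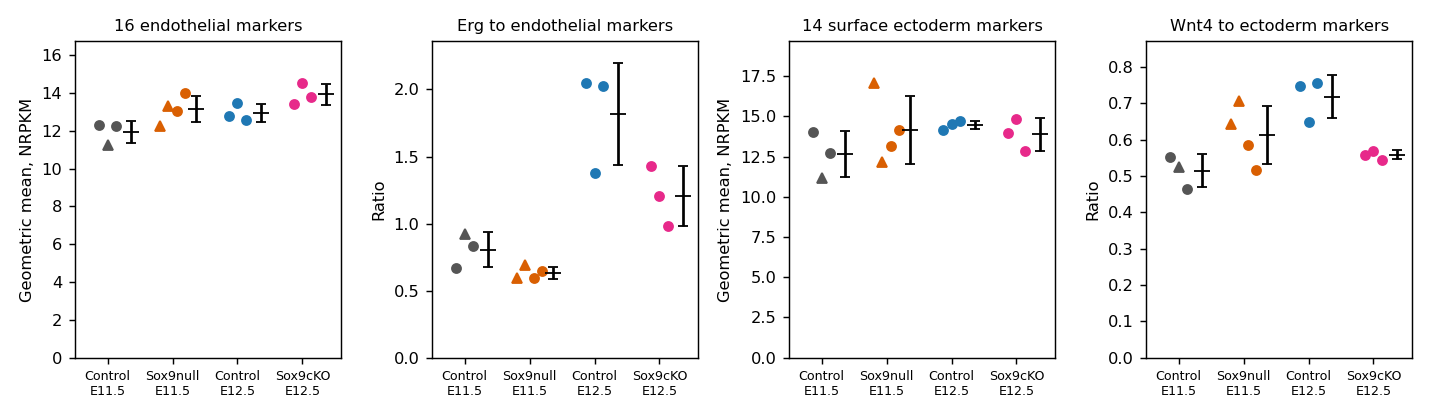
Geometric mean level of 16 endothelial and 14 surface ectoderm markers, and the levels of Erg and Wnt4 relative to them, with 1 point for each library and mean ± SD beside each group. Erg per endothelial level is 1.38 to 2.05 in E12.5 controls and 0.591 to 0.921 at E11.5, while the endothelial level itself spans 11.2 to 14.5 NRPKM over all libraries.

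Neither odd-skipped gene was called with stage, except that scaling to limb mesenchyme genes called both in controls (limma adjusted p = 0.000453 for Osr1 and 0.0344 for Osr2) and Osr1 in Sox9-deficient limb buds (adjusted p = 0.0227). That scaling called 39.1% of all genes in controls and 36.1% in Sox9-deficient limb buds. Of its 12 reference genes, 11 lay below 0 with stage in controls (median -0.21) and 9 in Sox9-deficient limb buds (median -0.11). Dividing by genes that fall with stage raises the stage differences of other genes. Osr1 was also called in controls with a term for the E11.5 clusters (adjusted p = 0.0364) and without Sox9cKO 1 (adjusted p = 0.0442). The cluster term called 7132 of 12880 genes in that comparison. Osr1 (chromosome 12, 9570116 to 9581500, plus strand) was 25.6, 18.8 and 23.5 NRPKM in E11.5 controls, 28.3, 31.4, 25.03 and 25.4 in Sox9null, 26.4, 35.8 and 30.5 in E12.5 controls and 24.99, 35.1 and 31.5 in Sox9cKO. Its E12.5 groups nearly coincided (log2 difference -0.02, 95% interval -0.34 to 0.30), and the stage difference in controls was 0.43 (limma adjusted p = 0.0564). At E11.5 the mutant difference was 0.28 overall (adjusted p = 1), 0.04 inside the cluster of 4 libraries and 0.64 inside that of 3, where Osr1 of the 1 control is the lowest value of all libraries.

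Osr2 (chromosome 15, 35296098 to 35303305, plus strand) was lower in every mutant than in every control of its stage. It was 19.9, 20.01 and 19.8 NRPKM in E11.5 controls and 13.5, 18.0, 18.1 and 16.9 in Sox9null. At E12.5 it was 23.6, 22.4 and 21.5 in controls and 17.0, 14.6 and 17.8 in Sox9cKO. The groups did not overlap at either stage, yet neither difference passed the test. The mutant difference was -0.25 at E11.5 (95% interval -0.46 to -0.05, unadjusted p = 0.0183, adjusted p = 1) and -0.43 at E12.5 (95% interval -0.65 to -0.21, unadjusted p = 0.00103, adjusted p = 0.164). At E12.5 it was called when Sox9null 1, the E11.5 library with the lowest Osr2, was left out of the shared estimate of the spread (adjusted p = 0.0292). Inside the E11.5 clusters Osr2 differed by -0.17 (4 libraries) and -0.34 (3 libraries), and against the male controls the male Sox9cKO library differed by -0.32. Connective tissue and tendon markers, 10 genes with 0 called in either mutant comparison, summed to 327 to 356 NRPKM in E12.5 controls and 282 to 326 in Sox9cKO, and their part in the Osr2 values was not tested.

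Counted over the 7 genes, the stage comparison in controls gave 5 calls, all higher, where 21.7% of all genes were called and 16.5% were called higher. With mesenchyme scaling it gave 7, where 39.1% of all genes were called. All 7 genes were higher in every E12.5 control than in every E11.5 control, a pattern that 32.6% of all genes showed in that direction. In Sox9-deficient limb buds 2 were called, both higher, where 19.7% of all genes were called and 14.5% called higher. There 3 genes stood apart and higher (Gdf5, Erg and Wnt9a), against 23.7% of all genes. The median stage difference of the 7 genes was 0.60 in controls and 0.14 in Sox9-deficient limb buds, beside 0.06 in both for all genes.

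At E11.5, 0 of the 7 genes were called between Sox9null and controls by limma, where 0.0543% of all genes were called, and 3 had an unadjusted p under 0.05 (Gdf6, Wnt4 and Osr2), as did 2.82% of all genes. Osr2 alone stood apart between the groups, and 1.06% of all genes were lower in this way. At E12.5, 0 of 7 were called, where 0.194% of all genes were called, and 4 had an unadjusted p under 0.05 (Gdf5, Wnt4, Erg and Osr2), as did 5.41% of all genes. Gdf5, Wnt4 and Osr2 stood apart, all lower, and 8.5% of all genes did so in that direction. All 7 differences lay below 0 at E12.5, with a median of -0.38 beside 0.01 for all genes, of which 56.8% lay above 0. Osr1, however, was at 0.0165 with sex as a term and above 0 without E12.5 control 2 or Sox9cKO 1. At E11.5 4 of the differences lay above 0 and 3 below, where 56.8% of all genes lay above 0. Pairs of members correlated at -0.14 to 0.98 over the libraries, so the signs of the 7 genes are not independent counts. For the change of the mutant effect between stages, 0 of 7 were called, where 0.0311% of all genes were called. All 7 lay below 0 there (median -0.39), beside a median of -0.00035 for all genes, of which 49.9% lay above 0. This change is the E12.5 mutant difference minus the E11.5 one, so it uses the E12.5 values again and is not a separate result. An exact permutation test over 3 against 3 libraries cannot go below p = 0.1, and over 3 against 4 not below p = 0.0571, so it could not pass the threshold for any gene. The E12.5 controls enter both the control stage comparison and the E12.5 mutant comparison, so these values are not independent. In whole limb buds fewer interzone cells and less RNA per cell cannot be told apart.

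**Figure D4:**
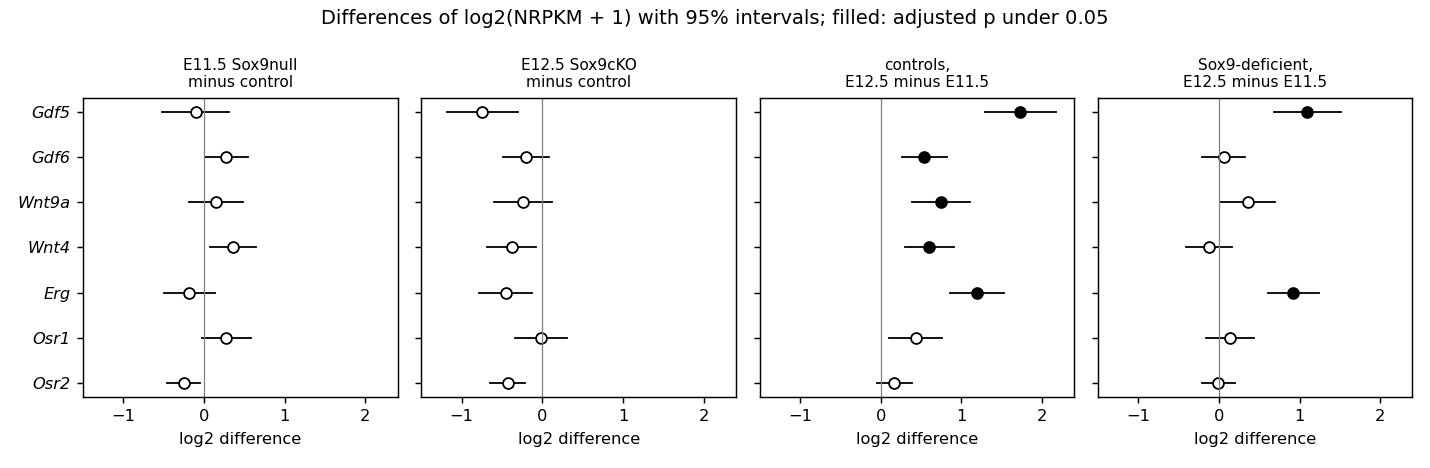
Differences of log2(NRPKM + 1) for the 7 genes in 4 comparisons, with 95% intervals from limma and filled points for an adjusted p under 0.05. The filled points are 5 in the control stage comparison and 2 in the Sox9-deficient stage comparison, and all 7 points lie below 0 at E12.5 between genotypes.

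In the authors' deposited table, which gives 1 adjusted p per gene from a one-way analysis of variance over the 4 groups, Erg had 0.00178, Gdf5 0.00206, Osr2 0.0335 and Wnt9a 0.0362. The same table gave Wnt4 0.0685, Gdf6 0.0687 and Osr1 0.213. That test does not say which groups differ.

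Of 14 other genes measured that are used to recognise interzone or joint tissue, Enpp2 was the single call in each mutant comparison. Of all genes, 0.0543% were called at E11.5 and 0.194% at E12.5. Enpp2 encodes autotaxin, a lysophospholipase D. It fell from 10.4 ± 0.982 to 5.79 ± 0.774 NRPKM at E11.5 (log2 difference -0.75, limma adjusted p = 0.0144) and from 18.99 ± 0.788 to 11.4 ± 0.915 at E12.5 (-0.69, adjusted p = 0.0159). At E12.5 10 of the 14 lay below 0, with a median of -0.16. With stage, 7 of them rose in controls and 8 in Sox9-deficient limb buds, Enpp2, Jun, Mef2c, Has2, Tgfbr2, Sulf1 and Pthlh in both. Of all genes, 16.5% were called higher with stage in controls and 14.5% in Sox9-deficient limb buds. Prg4, Barx1, Lgr5 and Col22a1 were on the list but not among the listed genes.

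Likeness across the 13 libraries set Gdf5 and Erg together, with a Pearson r of 0.981 between their log2 levels. All libraries share the stage difference, so these correlations are descriptions only. Prss35, a serine protease-like gene, was the gene most like both (r = 0.990 with Gdf5 and 0.991 with Erg), and was 16.8, 11.9 and 16.9 NRPKM in E12.5 controls and 10.5, 10.2 and 6.31 in Sox9cKO. The next was Tnni1, a troponin of muscle, for both genes (0.987 and 0.989), followed by the muscle light chain gene Myl1 for Gdf5 and Ndrg2 for Erg. Muscle markers, 10 genes, summed to 48.7 to 86.7 NRPKM at E11.5, 182 to 237 in E12.5 controls and 117 to 185 in Sox9cKO, with the lowest E12.5 sum in Sox9cKO 3, where Gdf5 and Erg were also at their lowest for that stage. Between E12.5 genotypes 0 of the 10 were called and 8 lay below 0 (median -0.46), and their part in the Gdf5 and Erg values was not tested.

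The remaining members had other nearest genes. Wnt9a correlated with Gdf5 at 0.900 and was most like Cd82, Rap1gap and Slc44a2 (0.973, 0.964 and 0.959). Wnt4 was most like the WNT ligand gene Wnt3 (0.909) and the desmosomal plakophilin genes Pkp3 and Pkp1 (0.883 and 0.880), and correlated with Gdf5 at only 0.442. Gdf6 was most like Emp3 (0.931), Aqp1 (0.925) and Dnase2a (0.914). Osr1 was most like Pde2a (0.946), and Osr2 like CT033751.3 (0.891) and Polg (0.844). Osr1 and Osr2 had a correlation of -0.14 with each other.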

How the data were processed

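Per the labels, total RNA was taken from mouse limb buds with the RNeasy Mini Kit and sequenced from Illumina libraries, and the submitters' processing notes name CASAVA 1.8 and the mm10 build. The aligner, read counting, use of strand and between-library normalization were not given in the sources used here. As stated per the file headers, the authors deposited a normalized RPKM (NRPKM) per gene and library, listed genes with a group mean of at least 3, and gave an adjusted p-value from analysis of variance. Depth is unknown. Headings give the group and replicate number of each library.

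Values were analysed as log2(NRPKM + 1) with limma 3.58.1 (R 4.3.3, trend and robust), with 4 group means over 13 libraries. The filter, at least 1 NRPKM in at least 3 libraries, removed 0 genes. P-values were two-sided, Benjamini-Hochberg adjusted over 12880 genes, and called under 0.05. The fit was run on simulated data with independent errors, without the E11.5 clusters or the mix of sexes. That run therefore does not check the calls against either. A fold on this scale understates the change of low genes. P-values measure the spread between embryos of a group, and at E11.5 this includes the split of the libraries into clusters. The shared estimate of the spread carries this into the E12.5 comparison.

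Coordinates and exon overlaps came from GENCODE mouse release 21, promoters from RefSeq. The table of promoters held 3 of the 7 genes. The genes named were the 7 members, list genes called between genotypes, Bmpr1b, Nog, Axin2 and Lef1, and the 3 genes most correlated with each member, predicted genes left out. Others, Gm15557 and stage-changed list genes among them, were added with their values in view. The members and lists were chosen with earlier results of these data known.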

Additional observations from a re-analysis of the deposited data

How the results depend on the processing

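Of 348 differences of the 7 genes under alternatives other than leaving out a library, 338 kept direction and call, 5 became calls and 5 reversed. The reversals were small. Osr1 at E12.5 was 0.0165 with sex as a term. In Sox9-deficient limb buds from E11.5 to E12.5, Gdf6 was -0.0298 under quantile normalization, and Wnt4 was 0.0372 and Osr2 0.17 when libraries were scaled to limb mesenchyme genes. That scaling moved the median of all genes by 0.20 in the control stage comparison, 0.17 in the Sox9-deficient one and -0.12 at E12.5 between genotypes, and it called 4 of the 7 genes rather than 2 in Sox9-deficient limb buds, and 36.1% of all genes rather than 19.7%. The causes were not tested.

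The number of genes called at E11.5, 7, was 0 with the compared groups alone (limma) and 41 with a term for the E11.5 clusters of libraries. At E12.5, 25 became 57 under quantile normalization and 105 with the cluster term. For the change of the mutant effect, 4 became 2 with a pseudocount of 0.1 and 2 with a minimum of 5 NRPKM. The control stage count, 2794, was 5033 with mesenchyme scaling and 7132 with the cluster term, and the Sox9-deficient one, 2539, was 4649 and 6675, or 922 with the compared groups alone. The share of stage calls that were higher was 76.1% in controls, 55.4% under quantile normalization and 97.4% with mesenchyme scaling, and in Sox9-deficient limb buds 73.5%, 55.6% and 96.9%. Of the E12.5 calls 28% were higher in Sox9cKO.

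Replicate numbers showed no steady pairing of the libraries. Deviations of same-numbered libraries correlated at -0.43 to 0.64 at E11.5 and -0.12 to 0.17 at E12.5. At E11.5 the libraries numbered 2 and 3 share a cluster between genotypes (0.64 and 0.44) and those numbered 1 do not (-0.43). Pairing and clusters thus cannot be told apart at that stage. With a replicate block, 5, 16 and 0 genes were called in the 2 mutant comparisons and their difference, and 2604 and 2438 with stage, while 0, 0, 0, 5 and 2 of the 7 genes were. Osr2 in the Sox9-deficient stage comparison was 0.0011 with the block.

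Leaving out 1 library gave 2 to 8 genes called at E11.5, 9 to 45 at E12.5, 0 to 10 for their difference, and 1379 to 3374 and 707 to 2976 with stage. Of the 7 genes, 0 to 0, 0 to 1, 0 to 0, 4 to 6 and 2 to 2 were called. Signs turned in 4 results, Gdf5 at E11.5 (-0.25 to 0.0274), Osr1 at E12.5 (-0.12 to 0.11), and Gdf6 (-0.0268 to 0.14) and Osr2 (-0.0991 to 0.0694) in Sox9-deficient limb buds. Depth per library is unknown, so no counting error could be given for low genes such as Wnt9a and Gm15557.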
